A study of Mus musculus with 11 samples.

Results

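The genes described here encode the machinery that takes up glutamate and turns it into glutamine: the plasma membrane glutamate transporters Slc1a1, Slc1a2, Slc1a3 and Slc1a6, the enzymes Glul and Glud1, and the exchange and import transporters Slc7a11 and Slc38a1. They were chosen by name for these roles, not by a measured value, and make up 8 of the 25827 genes in the count matrices. Glutamate released at synapses is cleared mainly by astroglia, which convert it to glutamine with glutamine synthetase and pass the glutamine back to neurons. In the cerebellum Bergmann glia, the radial astroglia of the molecular layer, wrap the synapses of parallel fibres on Purkinje cells, and Purkinje cells carry a glutamate transporter of their own. Failure of this uptake leaves neurons exposed to excitotoxic glutamate, a mechanism long discussed in multiple sclerosis and its mouse model.

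The study asked what is lost when cells of the neuroectoderm cannot sense interleukin-12 during experimental autoimmune encephalomyelitis (EAE). Nuclei stained with Hoechst were sorted from the cerebellum and brainstem of 1 hemisphere together with the upper cervical cord of male mice aged 8 to 12 weeks, and their RNA was counted by droplet sequencing of transcript 3′ ends. All mice carried Il12rb2fl/fl, floxed alleles of the IL-12 receptor chain. The NestinCre/+Il12rb2fl/fl mice also carried a Nestin-driven Cre, which is active in precursors of neurons and of macroglia. The floxed alleles are thus targeted in neurons, astroglia and oligodendrocytes together. The paper measured loss of Il12rb2 in neuronal and oligodendrocyte nuclei, and reports no IL-12 receptor subunits in astrocytes. Mice with EAE had received the MOG35-55 peptide in complete Freund's adjuvant with pertussis toxin and were taken on day 10, and naive mice were non-immunized. The 11 libraries comprised 4 of Il12rb2fl/fl mice with EAE (fl EAE), 4 of NestinCre/+Il12rb2fl/fl mice with EAE (NestinCre EAE), 2 of naive Il12rb2fl/fl mice (fl naive) and 1 of a naive NestinCre/+Il12rb2fl/fl mouse (NestinCre naive). Libraries are named by group and replicate number, and the number 4 stands for the EAE library of each genotype whose label has none.

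The libraries came from 3 sequencing runs: EAE libraries 1 to 3 of both genotypes from run 1, the EAE libraries numbered 4 together with fl naive 2 from run 2, and the other 2 naive libraries, fl naive 3 and NestinCre naive 2, from run 3. The libraries held 13120 to 22951 barcodes and 40761007 to 86063464 unique molecular identifiers (UMIs, each counting 1 captured RNA molecule), and no pair of libraries shared more than 140 barcodes. After filtering, 160004 nuclei remained. Clusters were made without the members and their pathway genes and were named from markers. Astrocytes (1246 nuclei), Bergmann glia (683), mature oligodendrocytes (20486) and Purkinje cells (493) were the classes compared. Of the 24 measured markers of these 4 classes, 22 were highest in their own class. The exceptions were Itih3 and Lcat, markers fixed for astrocytes whose mean level was higher in Bergmann glia. Clusters were named from these same markers, so this count does not test the names. Levels are CPM, the UMIs of a gene summed over the nuclei of 1 class in 1 library and scaled to a total of 1000000 UMIs, and they are compared between classes and libraries for 1 gene at a time. The Il12rb2 count does not check the genotype labels, since 3′ counts do not show whether an exon was deleted, and in astrocytes the gene was at 0 to 6.88 CPM.

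Slc1a2 (chromosome 2, 102488574 to 102621129, plus strand, GRCm39) encodes the main astrocytic glutamate transporter, and its level was highest in astrocytes. Over the 11 libraries it averaged 3409.6 ± 604 CPM (mean ± SD) in astrocytes, 1301 ± 121 in Bergmann glia and 357 ± 40.6 in oligodendrocyte progenitor cells, and the ranges of these 3 classes did not overlap. Astrocytes were 0.779% of the nuclei and held 28.6% of all Slc1a2 UMIs. With every nucleus thinned to 1000 UMIs, 90.2% of astrocytes and 72.2% of Bergmann glia held a Slc1a2 UMI, against 5.33% of granule cells, the neurons that make up most nuclei here. Unthinned, the shares were 97.9%, 94.2% and 11.4%, at median depths of 2765, 2927 and 2202 UMIs. Mature oligodendrocytes (3.47% thinned) and Purkinje cells (1.94% thinned) lay below granule cells, and their Slc1a2 counts were not read as expression. Free RNA was not measured. Granule cells, 62.7% of the nuclei, held 30.4% of the UMIs of this gene.

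Slc1a3 (chromosome 15, 8663604 to 8741595, minus strand) encodes GLAST, the transporter of radial astroglia, and Bergmann glia stood apart from all other classes in it. The level was 4557 ± 317 CPM in Bergmann glia, 1338 ± 530.1 in leptomeningeal cells or fibroblasts, 688 ± 104 in astrocytes, 326 ± 122 in microglia and 168 ± 18.1 in mature oligodendrocytes. Each class in this order lay above the next in 11 of 11 libraries, without overlap of their ranges. Mature oligodendrocytes nevertheless held 25.7% of all Slc1a3 UMIs, close to the 31.2% in Bergmann glia, the former being 12.8% of the nuclei and the latter 0.427%. The thinned share of nuclei with a UMI was 96.7% in Bergmann glia, 45.1% in astrocytes and 13.5% in mature oligodendrocytes, against 1.57% in granule cells, and unthinned these were 99.0%, 72.4%, 26.7% and 3.37%. The share in mature oligodendrocytes was thus above that of granule cells, which have a like median depth (2165 against 2202 UMIs).

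The neuronal transporters were placed differently. Slc1a6 (chromosome 10, 78616181 to 78650614, plus strand), which encodes the transporter on Purkinje cell spines, was at 752 ± 201 CPM in Purkinje cells and at 33.4 ± 5.79 in other neurons, the class that came next. Purkinje cells were 0.308% of the nuclei and held 27.8% of the Slc1a6 UMIs, with a UMI in 88.3% of them unthinned (median 12426 UMIs) and 45.3% thinned, against 4.48% and 1.94% of granule cells. Slc1a1 (chromosome 19, 28812449 to 28891360, plus strand) encodes EAAC1, the widespread neuronal transporter that also carries cysteine. Its level was highest in newly formed oligodendrocytes, at 728 ± 92.4 CPM over the 6 libraries with at least 10 such nuclei, then in oligodendrocyte progenitor cells at 199 ± 30.9 and in other neurons at 83.5 ± 3.58. Endothelial cells and choroid plexus cells, each with at least 10 nuclei in 1 library, NestinCre EAE 4, were left out of the class orders given here for all members. In that library endothelial cells (10 nuclei) had 232 CPM of Slc1a1, above the 168 of oligodendrocyte progenitor cells, and 667 CPM of Glul, above every class in the order of that gene. In mature oligodendrocytes Slc1a1 was down to 10.4 CPM. In the 4 classes compared at most 1.11% of thinned nuclei held a Slc1a1 UMI, under the 3.05% of granule cells. Granule cells are neurons and held 27.9% of the Slc1a1 UMIs, so their share is not read as a background for this gene.

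Glul (chromosome 1, 153775690 to 153785469, plus strand) encodes glutamine synthetase, which is known as an astrocyte enzyme, but in these nuclei its level in mature oligodendrocytes equalled that in astrocytes within the spread. The mean was 362 ± 58.9 CPM in mature oligodendrocytes, 353 ± 111 in astrocytes, 297 ± 85.9 in leptomeningeal cells or fibroblasts and 202 ± 58.8 in Bergmann glia, and neighbours overlapped throughout this order. Mature oligodendrocytes exceeded astrocytes in 7 of 11 libraries. Mature oligodendrocytes held 45.5% of all Glul UMIs and astrocytes 3.59%. The thinned share with a UMI was 30.4% in mature oligodendrocytes and 31.2% in astrocytes, against 5.08% of granule cells, and unthinned 52.6%, 56.2% and 10.7%. Purkinje cells, at 1.16% thinned, were below granule cells.

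Glud1 (chromosome 14, 34032583 to 34067642, plus strand) encodes glutamate dehydrogenase, which feeds glutamate into the citric acid cycle, and was at 397 ± 59.3 CPM in astrocytes and 277 ± 53.8 in Bergmann glia, the astrocyte value being the higher one in 11 of 11 libraries. Slc7a11 (chromosome 3, 49846975 to 50398070, minus strand) encodes xCT, which exports glutamate in exchange for cystine. It was highest in leptomeningeal cells or fibroblasts (2430.0 ± 872 CPM) and reached 213 ± 48.1 in astrocytes, and 10.7 in Bergmann glia (21.0 with classes taken from marker UMIs), where 0.807% of thinned nuclei held a UMI against 16.0% of astrocytes and 0.230% of granule cells. Slc38a1 (chromosome 15, 96469298 to 96541851, minus strand) encodes a sodium-coupled importer of glutamine and other neutral amino acids. Its level was 836 ± 188 CPM in Bergmann glia, 258 ± 88.7 in astrocytes and 225 ± 36.2 in molecular layer interneurons. Bergmann glia did not overlap the other classes taken as a whole. The astrocyte value joins 2 clusters described below, and in the one of 395 nuclei Slc38a1 was at 393 to 1066 CPM by library. That range overlaps the 572 to 1171 CPM of Bergmann glia. Thinned, 55.7% of Bergmann glia and 19.9% of astrocytes held a Slc38a1 UMI, against 9.56% of granule cells. Taken as a whole, the 2 astroglial classes thus divided the members. Slc1a2, Slc7a11 and Glud1 were higher in astrocytes, and Slc1a3 and Slc38a1 higher in Bergmann glia, each in all 11 libraries.

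**Figure D1:**
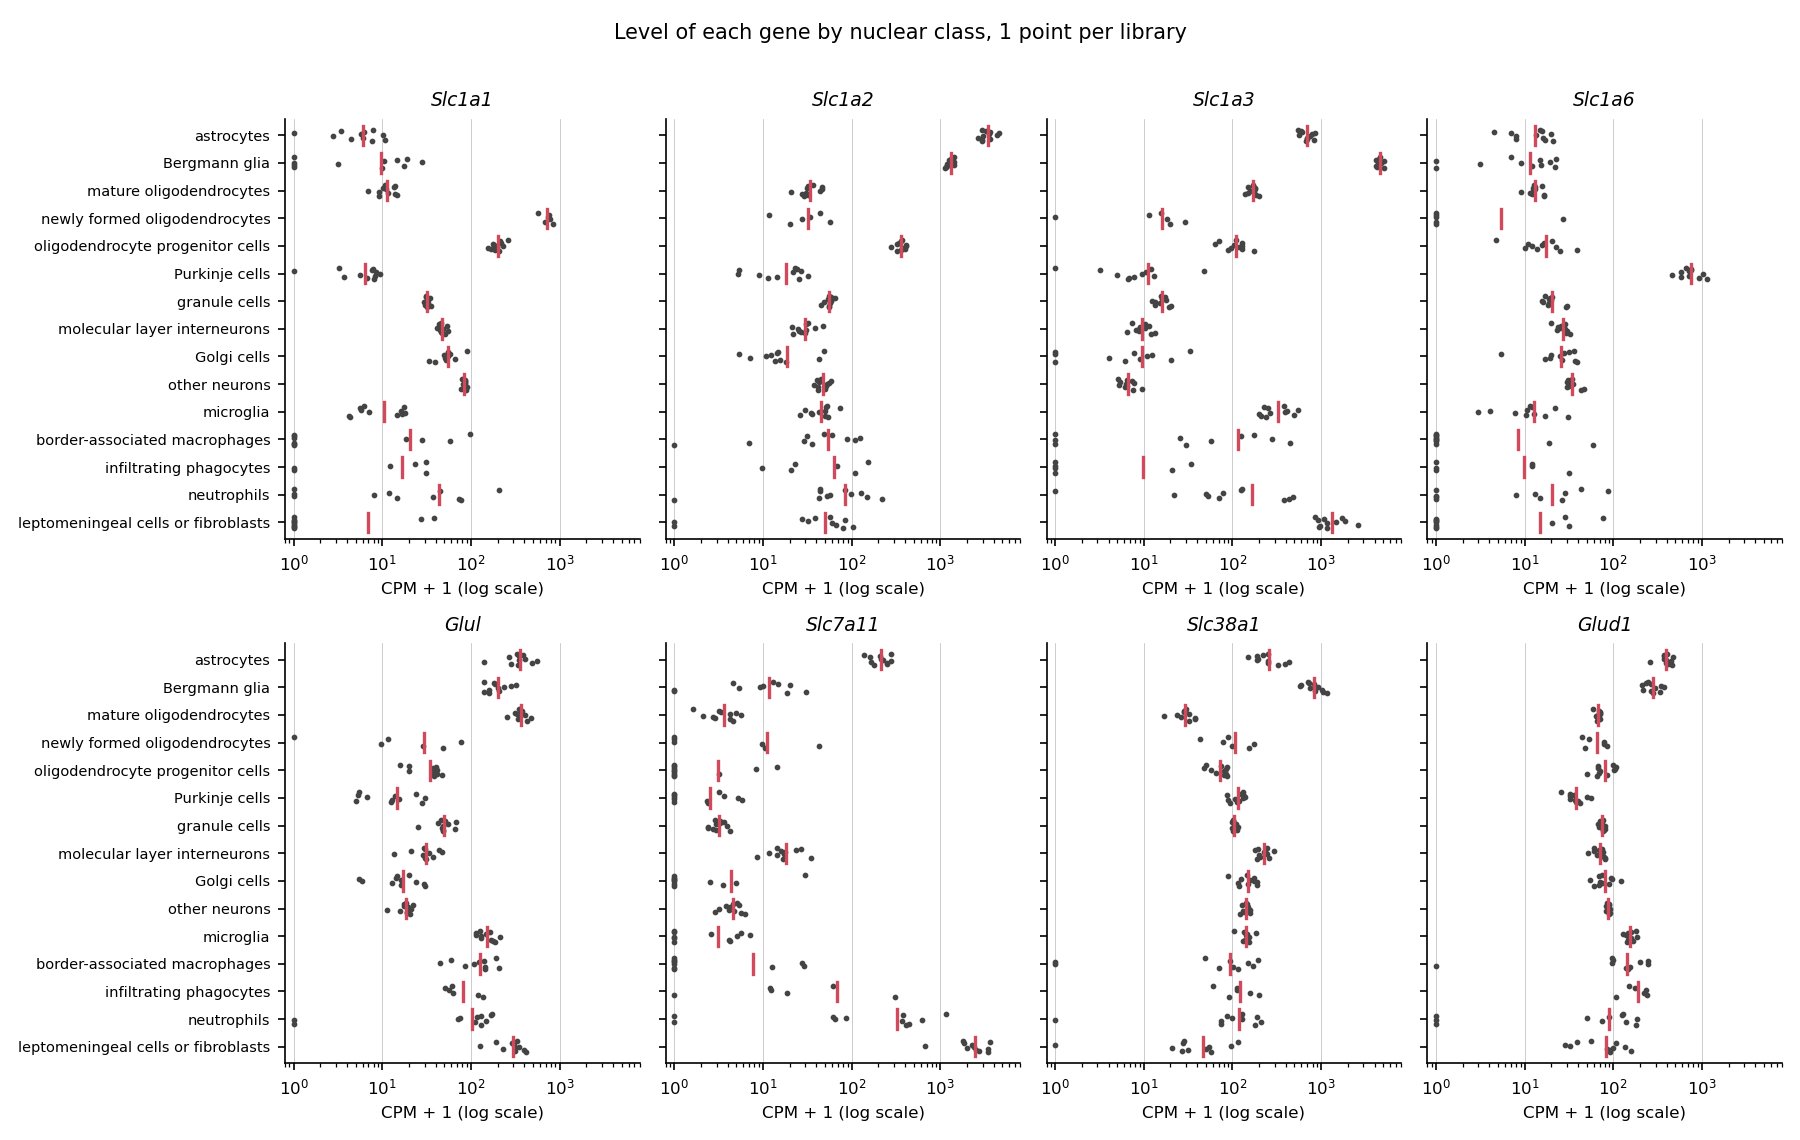
Level of each of the 8 members (CPM + 1 of UMIs summed per class and library, log axis) in the cell classes, 1 point per library and a red bar at the mean. Slc1a2 peaks in astrocytes, Slc1a3 and Slc38a1 in Bergmann glia, Slc1a6 in Purkinje cells, Slc1a1 in newly formed oligodendrocytes and Slc7a11 in leptomeningeal cells or fibroblasts, while Glul is about level between mature oligodendrocytes (362 CPM) and astrocytes (353 CPM).

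The comparison of NestinCre EAE with fl EAE asked whether these genes depend on IL-12 receptor expression in the neuroectoderm at the onset of disease. No member passed the test in astrocytes, Bergmann glia, mature oligodendrocytes or Purkinje cells. A gene was called at a Benjamini-Hochberg adjusted p under 0.05 over all genes tested in the class. edgeR called 0 of the 6, 5, 7 and 4 members that passed its filter on low counts in these classes, and DESeq2 also called 0. The share of all genes called was 0.62% in astrocytes, 0.181% in Bergmann glia, 1.7% in mature oligodendrocytes and 0% in Purkinje cells. In simulated counts this contrast recovered 10.9%, 26.6%, 59.1% and 26.6% of 1.5-fold changes in these classes, in this order. Of 2-fold changes it recovered 70.3%, 83.6%, 87.9% and 83.3%. No call therefore does not mean no change, above all for changes under 2-fold. At an unadjusted p under 0.05 edgeR had 1 member in astrocytes (Slc1a2), 1 in Bergmann glia (Glul) and 0 in the other classes, against 6.49%, 8.15%, 10.1% and 5.33% of all genes. In granule cells 0 of 8 members were called by either tool and 0 had an unadjusted p under 0.05, where edgeR called 1.8% of all genes and 9.4% had an unadjusted p under 0.05. The p-values measure the spread between libraries. The methods count the EAE samples of a genotype as independent animals, and describe the steady-state pair of genotypes as single mice. For fl naive 2 no such statement is given.

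Slc1a2 in astrocytes was at 2964, 3255, 3638 and 3049.7 CPM in fl EAE 1 to 4 and at 4553, 3566, 4334 and 3615 CPM in NestinCre EAE 1 to 4. The groups overlapped, since fl EAE 3 lay above NestinCre EAE 2 and NestinCre EAE 4. The fitted difference was a log2 fold change of 0.35 ± 0.13 (SE), with an unadjusted p of 0.0161 and an adjusted p of 0.562, and it ranged from 0.27 to 0.42 as each library was left out. Astrocytes were 0.998% ± 0.171 (SD, n = 4) of the nuclei in fl EAE and 0.647% ± 0.253 in NestinCre EAE (two-sided exact permutation p = 0.0857, adjusted over the 4 classes 0.171), and the part of this in the Slc1a2 value was not tested. In Bergmann glia Slc1a2 was at 1419, 1319, 1261 and 1179.8 CPM in fl EAE and at 1389, 1435, 1388 and 1201 CPM in NestinCre EAE. These ranges overlapped almost wholly, with a log2 fold change of 0.11 and a 95% interval of -0.16 to 0.38.

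Glul in Bergmann glia was the other member at an unadjusted p under 0.05. It was at 139, 181, 185 and 203 CPM in fl EAE 1 to 4 and at 323, 282, 238 and 207 CPM in NestinCre EAE 1 to 4, on 23 to 94 UMIs a library. The groups did not overlap, although NestinCre EAE 4 and fl EAE 4, both of run 2, were close at 207 and 203 CPM. Glul was the 1 member among the 5 tested in Bergmann glia whose CPM did not overlap between the EAE groups, and 4.45% of all genes tested there did not overlap. In astrocytes, mature oligodendrocytes and Purkinje cells 0 of the tested members stood apart in this way, against 4.06%, 6.23% and 2.99% of all genes. Its log2 fold change was 0.56 ± 0.22 (SE), with an unadjusted p of 0.0177 and an adjusted p of 0.472. Bergmann glia were also a smaller share of the nuclei in NestinCre EAE (0.329% ± 0.0447, SD, n = 4, against 0.558% ± 0.113; two-sided exact permutation p = 0.0286, the smallest possible, and 0.114 adjusted over the 4 classes, against p = 0.05, again the smallest possible, and 0.2 adjusted when permuted within sequencing runs), and the part of this in the Glul value was not tested. The 3 naive libraries had 159, 141 and 159 CPM, inside the range of fl EAE.

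In the class with the most nuclei of those compared, mature oligodendrocytes, Glul was at 352, 374, 362 and 356 CPM in fl EAE and at 317, 328, 404 and 474 CPM in NestinCre EAE. NestinCre EAE thus spread on both sides of fl EAE, and the log2 fold change was 0.06 with a 95% interval of -0.15 to 0.26. Summed markers of the mature oligodendrocyte states MOL5 or MOL6 (5 genes) were higher in NestinCre EAE without overlap, at 5484 to 6444 against 4609 to 5352 CPM, and their part in the Glul value was not tested. In astrocytes Glul was at 330.0, 385, 348 and 557 CPM in fl EAE and at 267, 409.8, 344 and 486 CPM in NestinCre EAE, with an interval of -0.37 to 0.24. Slc1a3 in Bergmann glia was at 4572, 4534, 4194 and 4388 CPM in fl EAE and at 5137, 4669, 4672 and 4195 CPM in NestinCre EAE, with a log2 fold change of 0.12 and an interval of -0.11 to 0.36. For Glul in mature oligodendrocytes and astrocytes and Slc1a3 in Bergmann glia a change of 1.5-fold in either direction lay outside the interval.

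Purkinje cells need a caveat on 1 library. fl EAE 4 contributed 109 of the 493 Purkinje nuclei at a median of 3034 UMIs, against 16 to 57 nuclei at medians of 9552 to 16758.5 UMIs in the others, and 1 Purkinje cluster of 35 nuclei came from it alone. Another 50 of its nuclei lay in a second cluster, where its Slc1a6 level was 131 CPM and which held 25.0% ± 14.1 (SD, n = 4) of the class in fl EAE and 9.62% ± 8.87 in NestinCre EAE. Slc1a6 was at 660.2, 751, 750.1 and 455 CPM in fl EAE 1 to 4 and at 718, 585, 1024 and 575 CPM in NestinCre EAE 1 to 4. The groups overlapped and fl EAE 4 was the lowest library. Between genotypes the log2 fold change was 0.15 ± 0.14 (SE), with an adjusted p of 0.974 and a 95% interval of -0.13 to 0.42. Within the largest Purkinje cluster, where fl EAE 4 has 24 nuclei and 579 CPM, it was 0.08 ± 0.16. Slc38a1 (log2 fold change 0.20 ± 0.16) and Glud1 (0.46 ± 0.24, unadjusted p 0.0724) were also tested in these cells, and neither passed.

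**Figure D2:**
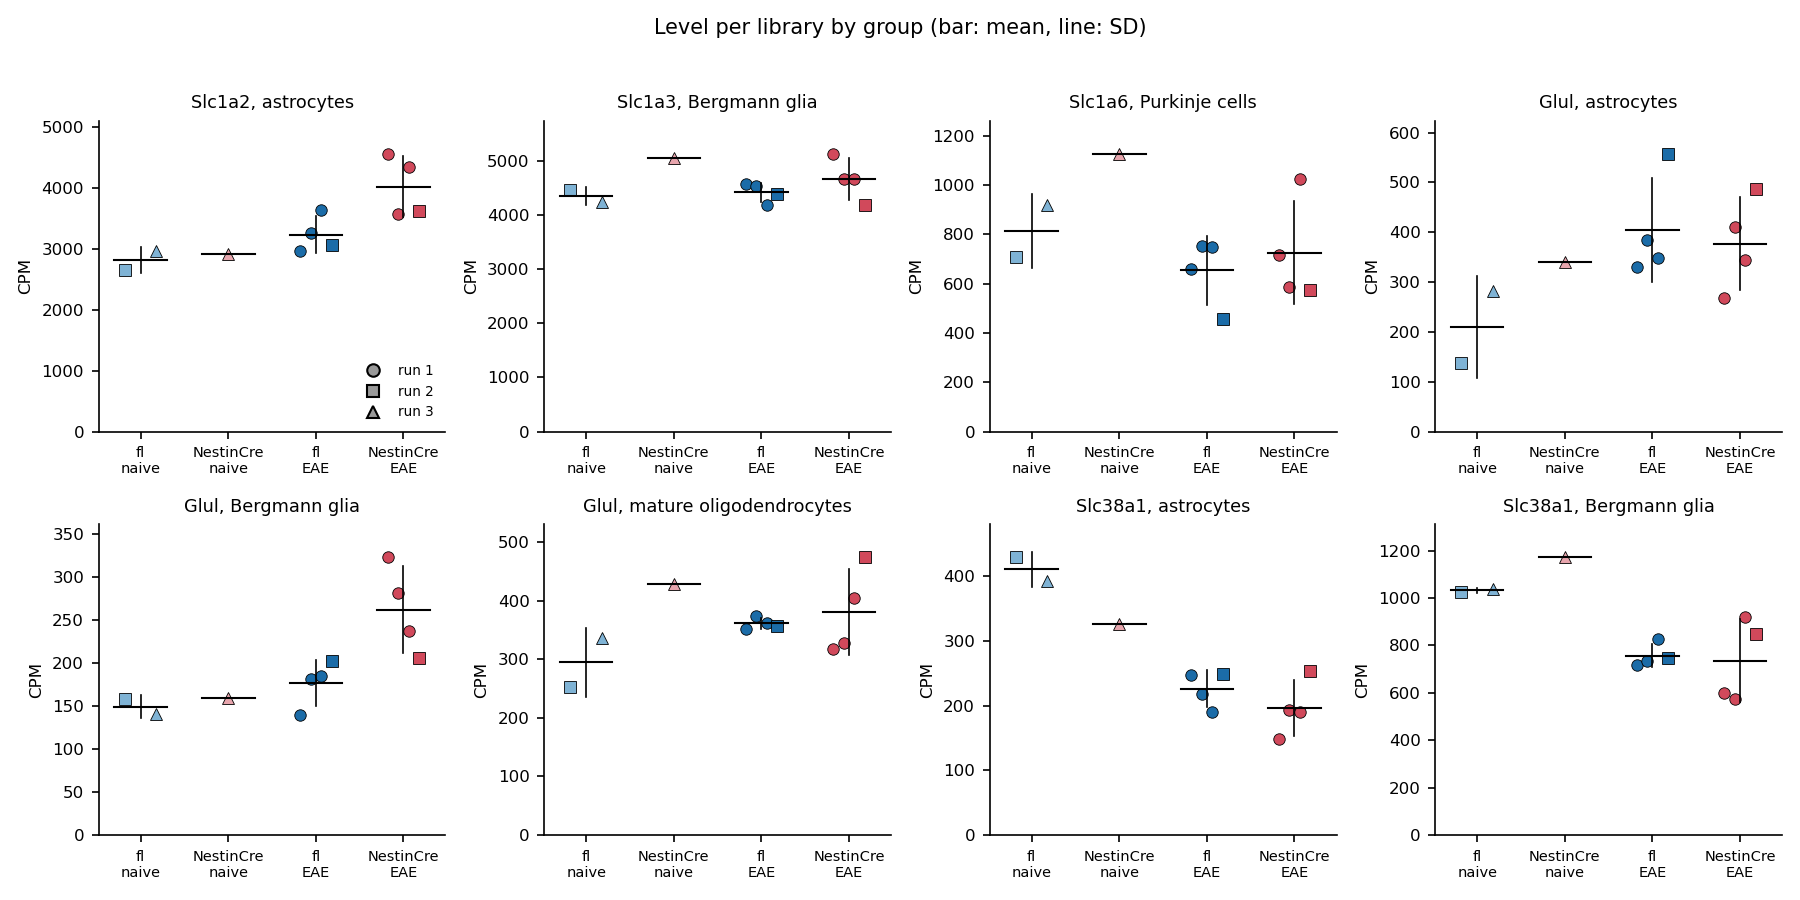
Level (CPM) of the members in the 4 classes by group, 1 point per library with its sequencing run as the symbol, the group mean as a bar and the SD as a line. The EAE groups of the 2 genotypes overlap for every member shown except Glul in Bergmann glia (139 to 203 against 207 to 323 CPM), and the 3 naive libraries lie above all 8 EAE libraries for Slc38a1 in astrocytes and Bergmann glia.

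Against this, the 15 genes of a list of interferon response genes had summed levels in these classes that separated the genotypes. The sum was 93.8 to 243 CPM in fl EAE and 630.0 to 1521 CPM in NestinCre EAE in astrocytes, 36.4 to 203 and 299.8 to 2816 in Bergmann glia, and 63.8 to 318 and 699 to 2004 in mature oligodendrocytes. In Purkinje cells it was 150.1 to 205 in fl EAE and 204 to 450.3 in NestinCre EAE, which overlap. NestinCre EAE 1 set the top in Bergmann glia, and the next was NestinCre EAE 3 at 739 CPM. In mature oligodendrocytes fl EAE 3 set the top of fl EAE, and the next was fl EAE 2 at 75.9 CPM. The reactive astrocyte list, 8 genes that include Gfap and Vim, summed to 47.8 to 96.3 CPM in fl EAE astrocytes and 201 to 464 in NestinCre EAE astrocytes. Naive astrocytes had 398 CPM in fl naive 2, inside the NestinCre EAE range, 93.9 in fl naive 3 and 161 in NestinCre naive 2. The separation of the EAE groups was not particular to astrocytes. The sums were 12.7 to 30.1 and 36.3 to 119.9 CPM in mature oligodendrocytes, and 6.89 to 18.9 and 21.7 to 68.6 in granule cells. In Purkinje cells they were 0 to 2.74 and 5.36 to 28.6, and in Bergmann glia they overlapped (58.0 to 87.8 and 72.6 to 342). Summed markers of infiltrating phagocytes (6 genes) were at 0 to 6.88 CPM in fl EAE and 6.95 to 101 in NestinCre EAE astrocytes, 0 to 13.9 and 5.59 to 85.6 in Bergmann glia, 4.81 to 8.44 and 8.02 to 113 in mature oligodendrocytes, and 0 to 2.74 and 0 to 15.6 in Purkinje cells. NestinCre EAE 1 was the highest library in each of these classes, and without it the NestinCre EAE mean went from 43.6 to 24.5 CPM in astrocytes, from 46.3 to 33.1 in Bergmann glia, from 54.4 to 34.8 in mature oligodendrocytes and from 6.96 to 4.08 in Purkinje cells. In granule cells the mean of these phagocyte markers was 5.83 CPM in fl EAE and 47.5 in NestinCre EAE. Summed neutrophil markers (6 genes) were at 3.44 to 7.26 CPM in fl EAE and 13.9 to 29.7 in NestinCre EAE astrocytes, 0 to 18.5 and 11.2 to 57.1 in Bergmann glia, 5.08 to 9.30 and 11.0 to 83.9 in mature oligodendrocytes, and 0 to 8.23 and 1.34 to 15.6 in Purkinje cells. NestinCre EAE 1 was again the highest, and without it the NestinCre EAE mean went from 40.2 to 25.7 CPM in mature oligodendrocytes. The fl EAE mean in Bergmann glia went from 6.07 to 1.93 CPM without fl EAE 3, and that in Purkinje cells from 3.77 to 2.29 without fl EAE 2. No member passed the test above, and what part RNA of infiltrating cells has in any of these values was not tested.

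The comparison of fl EAE with fl naive asked how these genes at disease onset differed from those of naive mice, in mice with the receptor. No library came from mice given adjuvant and toxin without the peptide, so disease and immunization cannot be told apart. The comparison is also weaker by design, because run 1 held no naive library and run 3 no EAE library. With run in the model the contrast needs run 2, where fl naive 2 was the 1 naive library beside fl EAE 4 and NestinCre EAE 4, so it could not be fitted without fl naive 2. The paper describes the naive sample of an experiment with this make-up as an internal control for reproducibility and batch effects. Whether fl naive 2 and fl naive 3 came from separate mice is not stated there. The standard errors were larger than in the genotype comparison (0.36 against 0.16 for Glul in astrocytes). edgeR called 1 of 6 members tested in astrocytes, Glul, where 0.711% of all genes were called and 0.301% called higher, and 3 members had an unadjusted p under 0.05 against 9.57% of all genes. It called 0 of 5 members in Bergmann glia, 0 of 8 in mature oligodendrocytes and 0 of 6 in Purkinje cells, where 0%, 0.789% and 0% of all genes were called, and 0, 1 and 2 members had an unadjusted p under 0.05 against 7.38%, 12.3% and 6.85% of all genes. In simulated counts this contrast recovered 0%, 30.8% and 10.6% of 2-fold changes in these 3 classes and 3.23% in astrocytes. A count of 0 here therefore does not show unchanged levels. DESeq2 called Glul in astrocytes too, and in mature oligodendrocytes it called 1 member, again Glul.

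Glul in astrocytes was at 330.0, 385, 348 and 557 CPM in fl EAE 1 to 4 and at 138 and 282 CPM in fl naive 2 and 3. All 4 EAE libraries lay above both naive ones, and in astrocytes 3 of 6 members (Slc1a2, Glul and Slc38a1) and 19.2% of all genes had ranges that did not overlap in this comparison. The log2 fold change was 1.98 ± 0.36 (SE), with an adjusted p of 0.00123. It was 1.78 without fl EAE 4, the highest EAE library (adjusted p 0.0302), and could not be fitted without fl naive 2, the lowest naive one. Without the run term it was 0.98, with an adjusted p of 0.119, and fl naive 2 rested on 27 Glul UMIs in 84 astrocytes. NestinCre naive 2 was at 341 CPM, and it and fl naive 3 (282 CPM) lay inside the range of the 8 EAE libraries, 267 to 557 CPM. fl naive 2 was the lowest library in both astrocyte clusters, at 149 and 114 CPM.

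Other measures also differed between the libraries. The summed glucocorticoid response list, 8 genes such as Fkbp5 and Tsc22d3, was 179 CPM in fl naive 2 astrocytes, 330.1 in fl naive 3, 473 in NestinCre naive 2 and 409 to 1159 in the 8 EAE libraries. The reactive astrocyte sum was 398 CPM in fl naive 2 against 93.9 in fl naive 3. Caudal Hox genes, which mark brainstem and cord origin, summed to 107 CPM in fl naive 2 astrocytes and 47.8 in fl EAE 4, the lowest of 11 libraries (the others 75.4 to 139). The part of stress, reactivity or regional make-up in the Glul value was not tested.

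Glul in mature oligodendrocytes had 253 and 336 CPM in fl naive 2 and 3 and 352 to 374 in fl EAE, so that the groups did not overlap there either, as for 1 of 8 members and 19.8% of all genes. Here the log2 fold change was 0.68 ± 0.20 (SE), with an unadjusted p of 0.00399 and an adjusted p of 0.132, and DESeq2 gave 0.69 with an adjusted p of 0.0458. NestinCre naive 2 was at 428 CPM, above all 4 fl EAE libraries. The summed markers of the mature oligodendrocyte states MOL5 or MOL6 were lowest in fl naive 2 (3592 CPM, the others 4609 to 6444), the same library in which Glul was lowest, and the glucocorticoid sum was 235 to 580.0 CPM in the naive and 773 to 2272 in the EAE libraries. In Bergmann glia Glul overlapped, at 139 to 203 CPM in fl EAE and 159 and 141 in fl naive.

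Slc38a1 went the other way. In astrocytes it was at 248, 218, 190.4 and 249 CPM in fl EAE, 149, 193, 191 and 253 in NestinCre EAE, 429 and 392 in fl naive and 325 in NestinCre naive. In Bergmann glia it was at 716, 736, 827 and 748 CPM in fl EAE, 599, 572, 919.5 and 849 in NestinCre EAE, 1025 and 1039 in fl naive and 1171 in NestinCre naive. The 3 naive libraries lay above all 8 EAE libraries in both classes, from 2 sequencing runs and both genotypes. Over all genes tested, 2.27% in astrocytes and 2.55% in Bergmann glia had 8 EAE libraries that did not overlap the 3 naive ones, and of the members these were Slc38a1 in both classes and Slc1a2 in astrocytes. In mature oligodendrocytes and Purkinje cells it was 0 members, against 6.71% and 1.89% of all genes. In fl mice alone, Slc38a1 was 1 of 5 members without overlap in Bergmann glia, where 18.6% of all genes had none. For fl EAE against fl naive the log2 fold change was -0.67 ± 0.30 (SE) in astrocytes, with an unadjusted p of 0.0324 and an adjusted p of 0.460, and -0.30 ± 0.33 in Bergmann glia, with an adjusted p of 0.851. Neither passed the test. Over both genotypes, a contrast added after these values were seen, it was -0.66 ± 0.33 in astrocytes (adjusted p 0.643, with 0.289% of all genes called), and without the run term -0.74 ± 0.17 (adjusted p 0.0432), when EAE and run cannot be told apart.

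The other astroglial members gave no call. Slc1a2 in astrocytes was at 2655 and 2961 CPM in fl naive and 2916 in NestinCre naive, all under the lowest EAE library (2964 CPM) but fl naive 3 only just, and the log2 fold change for fl EAE against fl naive was 0.18 with a 95% interval of -0.32 to 0.67. Slc1a3 in Bergmann glia was at 4474 and 4239 CPM in fl naive and 5053 in NestinCre naive, inside the EAE range of 4194 to 5137. Glud1 in astrocytes had a log2 fold change of 0.74 ± 0.32 (SE) with an adjusted p of 0.442, carried by fl naive 2 at 255 CPM, while fl naive 3 at 417 lay inside the EAE range of 370.2 to 469.5. Slc7a11 in astrocytes overlapped, at 138 to 278 CPM in EAE and 163 to 252 in naive libraries.

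In Purkinje cells Slc1a6 was at 707 and 921 CPM in fl naive 2 and 3 and 1127 in NestinCre naive 2, against 455 to 1024 in the 8 EAE libraries. The ranges overlapped and the lowest library was fl EAE 4 (455 CPM), in which many of the nuclei were shallow. For fl EAE against fl naive the log2 fold change was -0.57 ± 0.25 (SE), with an unadjusted p of 0.0309 and an adjusted p of 0.678, and -0.46 ± 0.30 within the largest Purkinje cluster. Glud1 had 24.5 to 35.2 CPM in fl EAE and 36.1 and 36.6 in fl naive, the 1 member of 6 without overlap, where 14.9% of all genes had none. Slc1a2 in Purkinje cells, where the share with a UMI was below that of granule cells, had the other unadjusted p under 0.05.

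In the contrast of NestinCre EAE with the single NestinCre naive library, which was assumed to vary like the other groups, edgeR and DESeq2 called 0 members in the 4 classes, where edgeR called 0% of all genes in astrocytes, Bergmann glia and Purkinje cells and 0.214% in mature oligodendrocytes. At an unadjusted p under 0.05 edgeR had 2 members in astrocytes, 1 in Purkinje cells and 0 in the other classes, against 6.28%, 4.77%, 6.11% (Bergmann glia) and 9.01% (mature oligodendrocytes) of all genes. One of these was Glul in astrocytes, with a log2 fold change of 1.55 ± 0.49 (SE) and an adjusted p of 0.463, although NestinCre naive 2 (341 CPM) lay inside the NestinCre EAE range of 267 to 486 CPM, since the run term between runs 2 and 3 comes from fl naive 2 and 3. The difference of the EAE effect between genotypes was tested directly, and edgeR had 0 members called and 0 at an unadjusted p under 0.05, DESeq2 also 0 called. Its share of all genes called was 0% in each class, and 4.69%, 4.6%, 5.03% and 4.02% of all genes had an unadjusted p under 0.05 in astrocytes, Bergmann glia, mature oligodendrocytes and Purkinje cells.

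**Figure D3:**
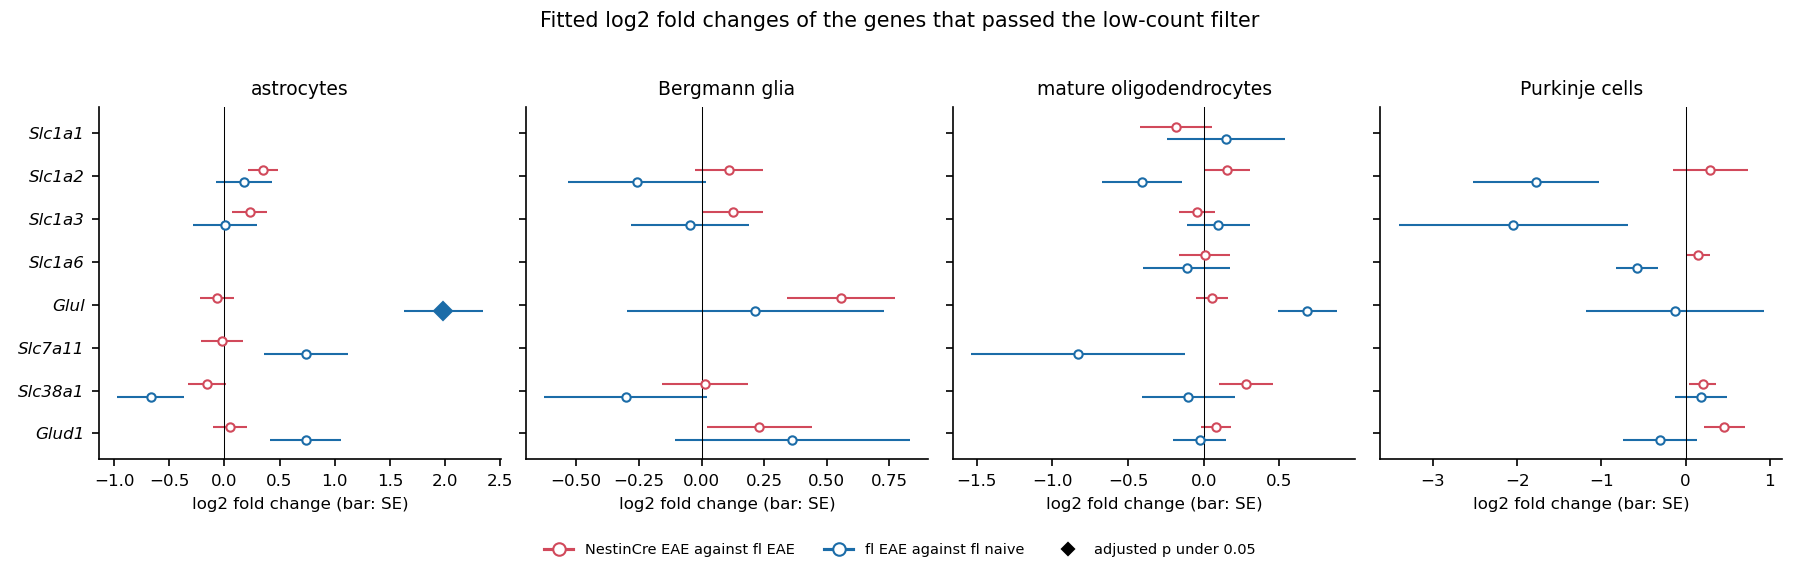
Log2 fold change of each tested member with its SE as a bar in the 4 classes, for NestinCre EAE against fl EAE (red) and for fl EAE against fl naive (blue). The x axes differ between panels, the disease contrast has the wider bars, and the filled diamond marks the 1 value past an adjusted p of 0.05, Glul in astrocytes (1.98).

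Within classes, some members differed between clusters. Astrocytes fell into a cluster of 851 nuclei with higher summed caudal Hox genes (95.5 CPM against 56.4) and one of 395 nuclei with higher Gfap (238 CPM against 53.4) and Aqp4 (881 against 428). The first had more Slc1a2, 3717 against 2279.9 CPM, and much less Slc38a1, 120.1 against 661 CPM. Glul was even between them, at 379 and 363 CPM. The share of astrocytes in the first cluster was 67.9% in fl EAE, 68.8% in NestinCre EAE, 70.0% in fl naive and 66.1% in NestinCre naive. In the Gfap-rich cluster Slc38a1 was at 914, 1066 and 973 CPM in the 3 naive libraries and at 438 to 734 in 7 EAE libraries. The eighth, NestinCre EAE 1, had 8 nuclei in this cluster and 393 CPM. In the other cluster the naive values were 208, 196 and 91.6 CPM against 67.6 to 151, and the NestinCre naive library lay inside the EAE range.

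Mature oligodendrocytes fell into 3 clusters along which Glul and Slc1a3 ran in opposite directions. The cluster of 11871 nuclei richest in Ptgds (3202 CPM), a marker of MOL5 or MOL6, had 433 CPM of Glul and 109 of Slc1a3. The cluster of 5386 nuclei had 378 and 196 CPM. The cluster of 3229 nuclei richest in Klk6 (126 CPM, against 10.2 in the first), a marker of MOL2, had 198 CPM of Glul and 234 of Slc1a3. The other listed markers of MOL5 or MOL6 did not all follow Ptgds. Il33 did, at 539, 188 and 12.5 CPM in these clusters in order. Grm3 (1812, 1969 and 721 CPM) and Car2 (691, 697 and 510.1) were not highest in the first, and Apod rose (370, 659 and 1203). In each of the 11 libraries Glul was higher and Slc1a3 lower in the first cluster than in the Klk6-rich one, with Glul at 316 to 554 CPM in the one and 109 to 273 in the other. The Klk6-rich cluster made up 16.3% of the class in fl EAE, 14.8% in NestinCre EAE, 16.6% in fl naive and 15.7% in NestinCre naive, and summed MOL2 markers over the class were 172 to 213 CPM in fl EAE and 154 to 222 in NestinCre EAE, which overlap. The summed MOL5 or MOL6 markers did separate the EAE genotypes, with all 4 NestinCre EAE libraries above those of fl EAE. Of the single genes tested in this class, 6.23% did not overlap between these groups. The share of the Ptgds-rich cluster did overlap, at 52.4 to 57.2% of the class in fl EAE and 56.9 to 59.5% in NestinCre EAE.

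**Figure D4:**
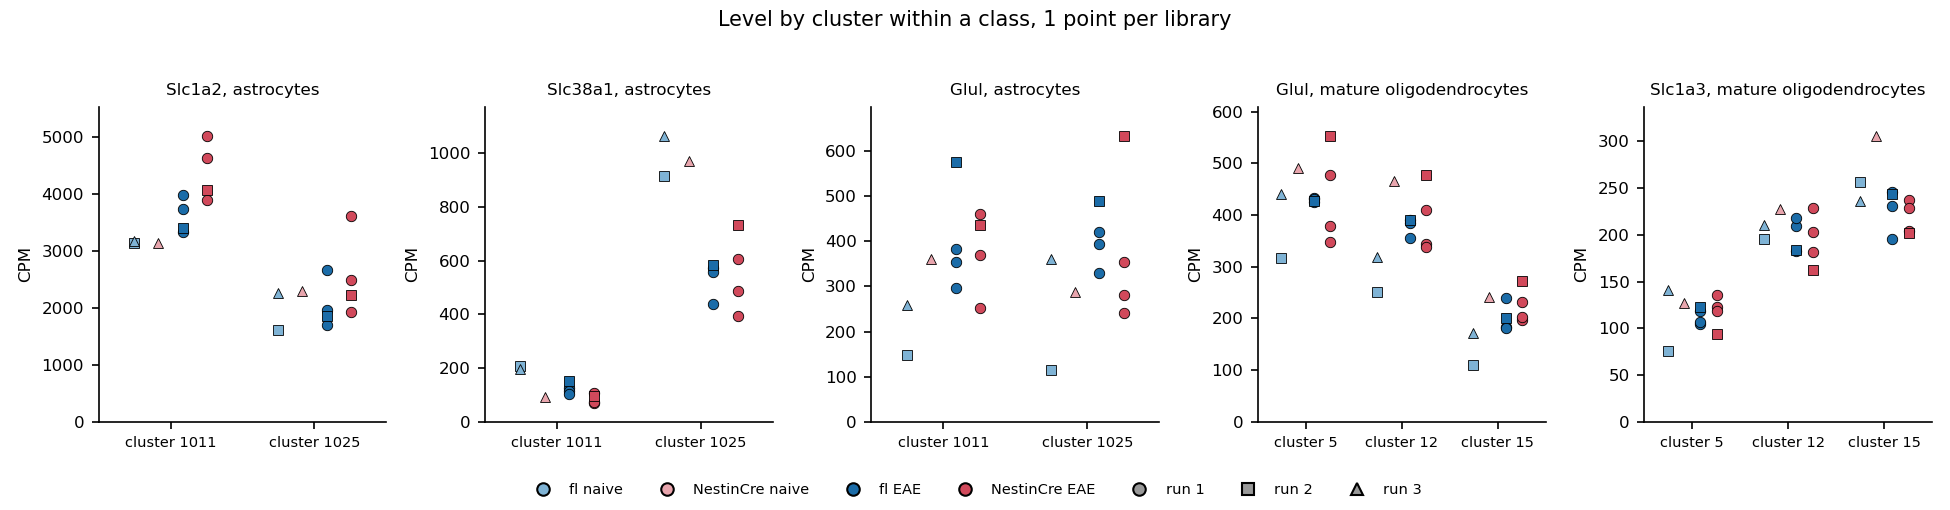
Level (CPM) of Slc1a2, Slc38a1 and Glul in the 2 astrocyte clusters and of Glul and Slc1a3 in the 3 mature oligodendrocyte clusters, 1 point per library coloured by group, with the Gfap-rich astrocyte cluster on the right and the oligodendrocyte clusters running from the Ptgds-rich to the Klk6-rich one. Slc38a1 is near 661 CPM in the Gfap-rich astrocyte cluster against 120.1 in the other, and Glul falls from 433 to 198 CPM from the Ptgds-rich to the Klk6-rich oligodendrocyte cluster while Slc1a3 goes from 109 to 234.

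The wider pathway was followed through 47 measured genes of glutamine transport, glutaminases, transaminases and mitochondrial carriers, glutathione synthesis, ion support of uptake and regulators. For NestinCre EAE against fl EAE edgeR called 0 of 25 tested in astrocytes, 0 of 16 in Bergmann glia, 0 of 41 in mature oligodendrocytes and 0 of 20 in Purkinje cells. At an unadjusted p under 0.05 there were 2, 2, 4 and 0, where the shares of all genes were 6.49%, 8.15%, 10.1% and 5.33%, and DESeq2 called 0. With the largest differences in astrocytes, Slc1a4, a neutral amino acid exchanger, was at 36.3 to 64.6 CPM in fl EAE and 72.9 to 92.2 in NestinCre EAE (log2 fold change 0.75 ± 0.25, adjusted p 0.408), and Nfe2l2, the regulator of antioxidant genes including Slc7a11, at 75.0 to 80.3 and 23.8 to 66.0 CPM (-0.61 ± 0.26, adjusted p 0.605). Neither pair of ranges overlapped, as for 4.06% of all genes in astrocytes. In Bergmann glia these were Gpt2, the mitochondrial alanine transaminase, with 120.1 to 159 against 61.4 to 98.5 CPM (-0.73 ± 0.27, adjusted p 0.445), and the astroglial connexin Gjb6 (0.63 ± 0.27, adjusted p 0.554). The Gpt2 values rested on 20 to 61 UMIs a library in fl EAE and 8 to 12 in NestinCre EAE. Of all genes tested in Bergmann glia, 4.45% did not overlap. In mature oligodendrocytes they were Keap1, which holds Nfe2l2 protein in check (0.38 ± 0.13, adjusted p 0.286), and the mitochondrial glutamate carrier Slc25a22 (0.38 ± 0.17, adjusted p 0.479), and in Purkinje cells the lysosomal transporter Slc38a9 (-0.32 ± 0.20) and the aspartate transaminase Got1 (0.22 ± 0.21).

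For fl EAE against fl naive edgeR called 1 of 32 pathway genes in astrocytes, 0 of 26 in Bergmann glia, 2 of 42 in mature oligodendrocytes and 0 of 26 in Purkinje cells. All 3 were higher in EAE, as were 0.301% of all genes in astrocytes and 0.376% in mature oligodendrocytes. In Bergmann glia and Purkinje cells 0% of all genes were called. Gjb6 in astrocytes was at 296, 223, 148 and 301 CPM in fl EAE, 179 to 274 in NestinCre EAE, 81.7 and 214 in fl naive and 164 in NestinCre naive. It overlapped, with fl naive 3 and NestinCre naive inside the EAE range, and the fitted difference of 1.89 ± 0.43 on the log2 scale (adjusted p 0.0190) fell to 0.69 (adjusted p 0.549) without the run term and was 1.75 without fl EAE 4 (adjusted p 0.116) and 1.25 with classes taken from marker UMIs (adjusted p 0.439). Bcat1, the cytosolic transaminase of branched-chain amino acids, was at 284, 294, 220.4 and 311 CPM in fl EAE mature oligodendrocytes, 193 to 384 in NestinCre EAE, 78.2 and 145 in fl naive and 178 in NestinCre naive. Its 8 EAE libraries lay above the 3 naive ones, as for 2.4% of all genes tested in mature oligodendrocytes. The log2 fold change was 1.92 ± 0.36 (adjusted p 0.0365). It was 1.39 without the run term (adjusted p 0.128), 1.91, 1.90 and 1.67 without fl EAE 1, 2 and 4 (adjusted p 0.0832, 0.0768 and 0.0874), and 1.95 with classes taken from marker UMIs (adjusted p 0.117).

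Slc38a2, a glutamine importer related to Slc38a1, was at 824, 907, 668 and 597 CPM in fl EAE mature oligodendrocytes, 769.5 to 901 in NestinCre EAE, 247 and 663 in fl naive and 628 in NestinCre naive. fl naive 2 stood far below the others, and fl EAE 4 lay between the naive libraries. Its log2 fold change was 1.37 ± 0.21 (adjusted p 0.0205), and the call was lost without the run term (0.80, adjusted p 0.263), without fl EAE 1 (1.36, adjusted p 0.0570) and with classes taken from marker UMIs (1.39, adjusted p 0.117). In Bergmann glia the largest fitted differences were of Arl6ip5 and Slc7a8, which had 0 UMIs in fl naive 2 and 8 each in fl naive 3, too few for a fold. In Purkinje cells they were Slc17a7 (1.63 ± 0.91, adjusted p 0.770), the vesicular transporter of granule cells, and Gpt2 (1.36 ± 0.48, adjusted p 0.601).

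The genes whose levels over 15 class means were most like those of a member were found by Pearson's r of log2(CPM + 1) among 14753 genes. For Slc1a2 these were Slc7a10 (r = 0.953), itself 1 of the astrocyte markers, Fam181b (0.938) and Ccdc190 (0.930). For Slc1a3 they were Gm37310 (0.949), Sugct (0.928) and Kansl1l (0.893), for Slc1a6 Vax2 (0.954), Gckr (0.949) and Atp6v1b1 (0.949), and for Glul Selenop (0.931), Ech1 (0.927) and Ttc12 (0.924). The class means share libraries and depth, and the r values describe these 15 classes.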

How the data were processed

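Single-nucleus RNA was counted in 11 libraries (4 fl EAE, 4 NestinCre EAE, 2 fl naive, 1 NestinCre naive). The deposited matrices hold raw UMI counts per gene and barcode, which the authors made with Cell Ranger on GRCm39 (version 7.0.0 in the matrix headers of run 1, 6.0.2 in those of runs 2 and 3, 6.0.2 in the submitters' processing notes). Barcodes with at least 200 genes (run 1) or 500 genes (runs 2 and 3) and at most 5% mitochondrial UMIs were kept (188089 of 189709), and the nuclei with the highest Scrublet scores were removed as doublets at 0.8% per 1000 barcodes, leaving 160004, and clusters with over 40% doublets were left out of the classes.

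Clustering used 3000 variable genes, 40 principal components, a harmony correction between libraries, 20 neighbours and Leiden communities (scanpy 1.11.5), without 56 member and pathway genes. Clusters were named from markers, 9717 nuclei stayed unnamed, and cell types rebuilt this way can differ from those of the study. UMIs were summed per library and class, given as CPM, and tested across libraries with at least 10 nuclei by the quasi-likelihood test of edgeR 4.0.16 (TMM factors, filterByExpr, sequencing run as a covariate), with Benjamini-Hochberg adjustment over all genes tested in a class. The genotype test used the 8 EAE libraries, and the disease and interaction contrasts 1 fit of all 11. DESeq2 1.42.0 on R 4.3.3 was an alternative, as were no run term, other factors, no filter, no doublet removal, nuclei under 6000 UMIs, classes from marker UMIs, run 1 alone, a replicate block and leaving out each library. The scripts were checked on simulated counts. Shares of nuclei with a UMI were given before and after thinning each nucleus to 1000 UMIs, leaving out shallower nuclei. Intervals are normal 95% intervals of the fit.

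All 8 members are named, and of the pathway genes those called in a class, or otherwise the 2 with the largest fold change there. For Slc1a2, Slc1a3, Slc1a6 and Glul the 3 genes most like them are named among genes reaching 10 CPM in a class. The members, lists, tests and alternatives were chosen with earlier results of these data known, and the contrast of EAE with naive over both genotypes, the largest Purkinje cluster alone and the permutation of class shares within runs were added after the data were seen. Gene positions are from GENCODE on GRCm39.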

Additional observations from a re-analysis of the deposited data

Results flagged for a closer look

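In 42 groups of 4 libraries, 2 held a library apart from its group by Dixon's criterion, and chance gives about 1 in 20. Slc1a3 in mature oligodendrocytes was at 149 CPM in fl EAE 3, with the other fl EAE libraries at 169.9 to 174. Slc38a1 in mature oligodendrocytes was at 16.1 CPM in fl EAE 4, with the others at 27.2 to 28.9. In fl EAE 4 mature oligodendrocytes the summed caudal Hox genes were also the lowest of all libraries, at 10.4 CPM against 22.5 to 35.7, and the part of this in the Slc38a1 value was not tested.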

How the results depend on the processing

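For NestinCre EAE against fl EAE the count of members called was 0 in each of the 4 classes and in granule cells under every alternative that could be fitted, leave-one-out fits included (0 to 0). A replicate block in place of run, over libraries 1 to 3, also gave 0 members called. The numbers did not pair the libraries, since the deviations of same-numbered libraries correlated between -0.109 and 0.120, and the block was used for no result. For fl EAE against fl naive in astrocytes the count of 1 became 0 without the run term and stayed at 1 to 1 as each library that could be spared was left out, with Glul between 1.78 and 2.08 on the log2 scale. In mature oligodendrocytes the count of 0 became 1 with DESeq2. Leave-one-out counts were 0 to 0 for Bergmann glia, mature oligodendrocytes, Purkinje cells and granule cells, and 0 to 0 for the NestinCre contrast and the interaction. No member reversed its direction among called values. Among the levels, classes taken from marker UMIs moved Slc1a3 in astrocytes from 688 to 1027 CPM, Slc7a11 in Bergmann glia from 10.7 to 21.0 and in mature oligodendrocytes from 2.60 to 6.03, and Slc1a1 in Bergmann glia from 8.77 to 3.09. In nuclei under 6000 UMIs, which left 2 libraries of Purkinje cells, Purkinje Glul was at 144 CPM (13.6 in all), Slc1a2 at 65.7 (17.1) and Slc1a3 at 19.2 (10.2). The cause of these shifts was not tested.

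Some alternatives could not be fitted: fl EAE against fl naive without fl naive 2, the NestinCre contrast and that over both genotypes without any 1 naive library, the interaction without fl naive 3 or NestinCre naive 2, Purkinje cells under 6000 UMIs, and disease contrasts in Bergmann glia with classes from marker UMIs. fl naive 2 held 27 Glul UMIs in astrocytes, and counting error was not separated from the spread between libraries. Classes with few UMIs allow no statement on Slc1a1, Slc1a6 or Slc7a11 outside the classes where they are high.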
